A study of Mus musculus with 10 samples.

Results

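Macrophages of the gastrocnemius, the large calf muscle, were followed through 10 genes: the growth factor Csf1, the second ligand Il34, their common receptor Csf1r, and 7 genes by which macrophages are recognised (C1qa, C1qb, C1qc, Lyz2, Cd68, Mrc1 and Cd163). The genes were taken by symbol from the table of gene counts and the table of TPM (a level per transcript length). All 10 were found among the 18025 genes of the tables, and all 10 were among the 12697 genes that passed the filter on low counts. They were chosen by name, and 5 libraries of control mice were compared with 5 of mice with chronic obstructive pulmonary disease (COPD). Both groups were wild-type C57BL/6 mice, given as 8 weeks old, and they differ in the labels by disease state alone. The series' title says that the disease was modelled with cigarette smoke; the amount and length of exposure and the sex are not stated. Nor do the labels say that each library came from its own animal, so p-values reflect only how these libraries spread, which may be technical.

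Resident macrophages of skeletal muscle lie between the fibres, clear dying cells and debris, and help in repair after injury. Their survival and growth depend on the receptor CSF1R, a tyrosine kinase of the cell surface. It is bound by CSF1 and by interleukin 34, 2 secreted proteins of separate genes. C1q, the recognition molecule that starts the classical complement pathway, is built from the products of C1qa, C1qb and C1qc, and tissue macrophages are its main source. Because whole muscle was sequenced, fewer macrophages and less RNA per macrophage cannot be told apart.

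Library totals lay between 14085854 and 17251034 expected counts, so that 1 CPM (a count scaled to library size with TMM factors) stood for 13.5 to 18.1 counts. Markers of muscle fibres (10 genes) summed to between 130275 and 225705 CPM, and no marker of the macrophage list was at 0 in all libraries. Transcripts of 3 genes of the Y chromosome (Ddx3y, Eif2s3y and Kdm5d) were plentiful, at 1118 to 1974 counts, in the controls and in COPD replicates 2 and 3. COPD replicates 1, 4 and 5 held 3 or 4 such counts each, so results are also given for each kind of COPD library against the controls. Markers of neutrophils summed to 372 CPM in control replicate 1 and 98.7 CPM in COPD replicate 5, and to between 5.62 and 17.2 CPM in the other 8 libraries.

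By the quasi-likelihood test of edgeR, 0 of the 10 genes reached an adjusted p under 0.05 (Benjamini-Hochberg, over all genes tested), where 0.0551% of tested genes were called higher and 0.00788% lower. Fold changes are COPD over control. Of the 10 genes, 8 were below 0 on the log2 scale, against 52% of all genes tested (6606 of 12697). The median was -0.61 over the 10 genes and -0.01 over all genes tested. At an unadjusted p under 0.05, 5 of the 10 were lower (Csf1, the C1q genes and Lyz2) and 0 higher, where 6.64% of all tested genes were lower and 7.94% higher. By DESeq2, 1 of the 10 was called lower (Csf1, background 0.843%), and 6 were lower at an unadjusted p under 0.05 (background 4.83%). The DESeq2 shares are over 17903 genes, with no filter on low counts, so they cannot be set directly beside those of edgeR. The limma shares below are over 11190 genes. Limma called 1 of the 10 lower, again Csf1, on log2(TPM + 1) (background 0.518%) and on log2(TPM + 0.1) (background 0.5%), and 7 were lower at an unadjusted p under 0.05 on either scale, where 24.6% of all genes were. By voom with sample weights 0 of the 10 passed (background 0.402% lower), and 7 were lower at an unadjusted p under 0.05 (background 8.95%). The genes were picked with earlier results of these data known, so these counts describe the genes and say nothing of macrophage genes at large.

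**Figure D1:**
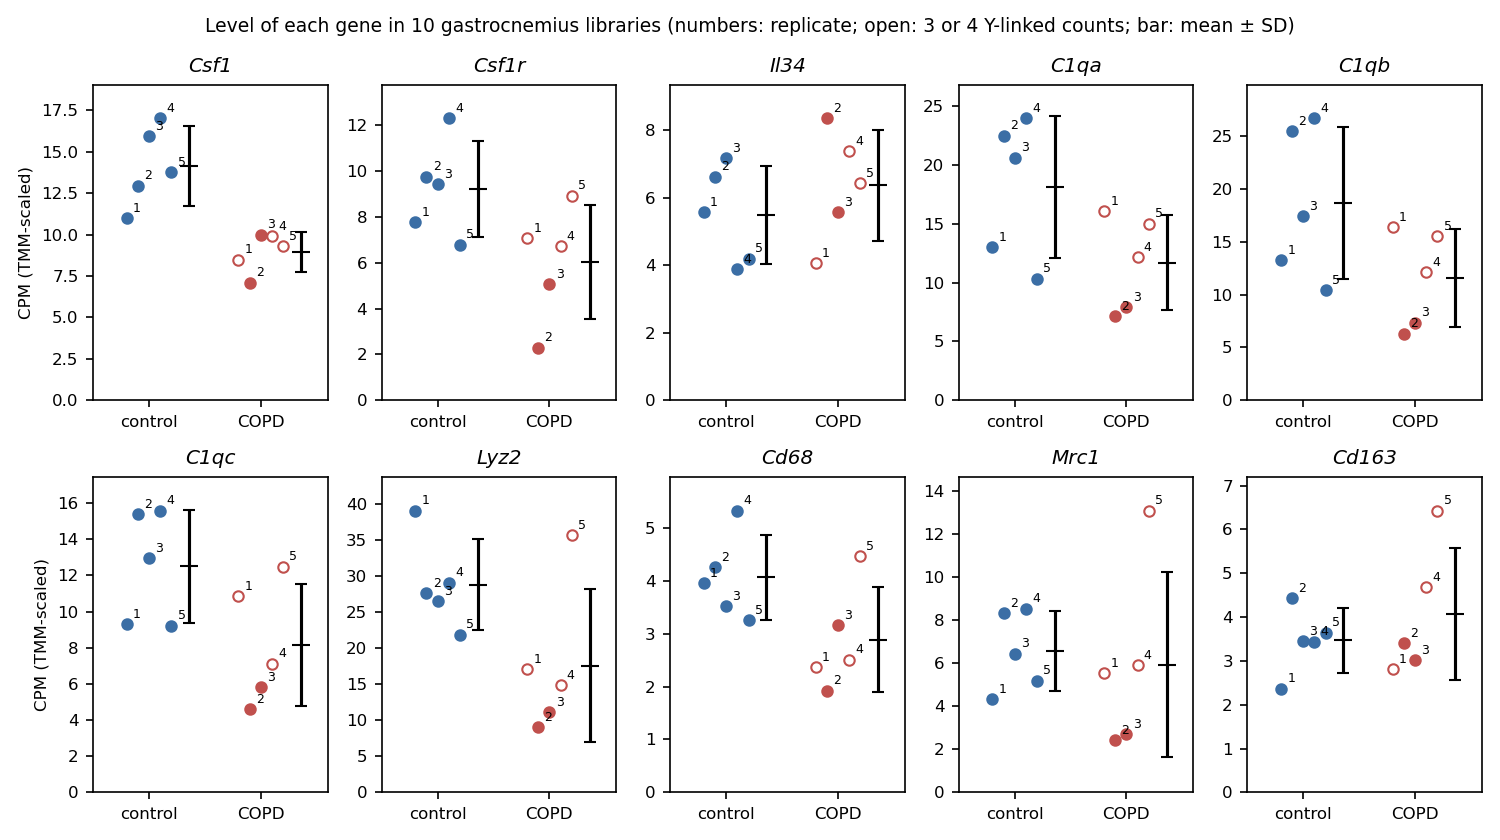
Level of each gene in CPM (TMM-scaled, linear axis from 0) in 5 control and 5 COPD libraries; numbers are replicates, open points are COPD libraries with 3 or 4 Y-linked counts, and bars give mean ± SD. Only for Csf1 do the 5 COPD points, at 7.10 to 10.0, all lie below the 5 control points, at 11.004 to 17.03.

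Csf1, the growth factor that keeps macrophages alive, had the smallest p of the 10. Its level in control replicates 1 to 5 was 11.004, 12.96, 15.95, 17.03 and 13.76 CPM. In COPD replicates 1 to 5 it was 8.49, 7.10, 10.0, 9.91 and 9.31 CPM. Every COPD library lay below every control library, a separation that 1.55% of tested genes showed in this direction. No other of the 10 separated in either direction, and 1.29% of tested genes did so with COPD higher. The means were 14.1 ± 2.40 CPM in control and 8.96 ± 1.201 CPM in COPD (SD, n = 5 each), and the level in control was 1.58 times that in COPD. On the log2 scale the fold change was -0.66 ± 0.14 (SE), with an adjusted p of 0.0887 by edgeR. DESeq2 gave a log2 fold change of -0.65 ± 0.16 and an adjusted p of 0.00589, past the threshold, and limma on log2(TPM + 1) gave -0.69 ± 0.13 and 0.0471. In that limma fit the median of all genes was -0.18. The adjusted p was 0.0803 by the same limma fit without a filter and 0.0714 by voom with sample weights. Csf1 passed in 5 of the 26 alternatives to the edgeR fit. The values for both kinds of COPD library were close: the log2 fold change of Csf1 was -0.72 ± 0.21 for COPD replicates 2 and 3 against the controls (edgeR adjusted p = 0.0986) and -0.61 ± 0.16 for COPD replicates 1, 4 and 5 against the controls (edgeR adjusted p = 0.313).

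Il34, whose product binds the same receptor and which is best known from skin and brain, was not lower in COPD by these values. It was at 5.59, 6.63, 7.18, 3.88 and 4.20 CPM in control replicates 1 to 5 and at 4.06, 8.36, 5.59, 7.395 and 6.43 CPM in COPD replicates 1 to 5. The groups overlapped, and the library with the highest Il34, COPD replicate 2, was the one with the lowest Csf1. The log2 fold change of Il34 was 0.22 ± 0.22 (edgeR adjusted p = 0.705), and between 0.10 and 0.34 when 1 library was left out. In TPM, which allows levels of different genes to be compared, Csf1 stood at 6.496 ± 1.13 and Il34 at 5.63 ± 1.27 in control, and at 3.63 ± 0.498 and 5.72 ± 1.52 in COPD (SD, n = 5 each). The ratio of Csf1 to Il34 in TPM was 0.847, 0.869, 1.00, 2.01 and 1.44 in control replicates 1 to 5 and 1.03, 0.401, 0.798, 0.570 and 0.623 in COPD replicates 1 to 5. Csf1 was thus the more abundant ligand transcript in 3 of 5 control libraries and in 1 of 5 COPD libraries, and the ratios of the 2 groups overlapped. Both ligands together summed to 12.1 ± 1.03 TPM in control and 9.35 ± 1.51 TPM in COPD (SD, n = 5 each). On the TPM scale the median log2 fold change of all genes was -0.18 by limma on log2(TPM + 1). The sums were not adjusted for that shift.

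Csf1r, the receptor that marks the macrophage lineage, was at 7.79, 9.76, 9.44, 12.3 and 6.80 CPM in control replicates 1 to 5. In COPD replicates 1 to 5 it was at 7.09, 2.29, 5.07, 6.72 and 8.94 CPM. COPD replicates 2, 3 and 4 lay below the lowest control, and COPD replicates 1 and 5 among the controls. Its log2 fold change was -0.61 ± 0.29 (edgeR adjusted p = 0.351). The value for COPD replicate 2 rests on 31 counts, the fewest of the 10 libraries, where the controls had 123 to 222. Without that library the log2 fold change was -0.40 ± 0.20 (edgeR adjusted p = 0.475), a value 1 library thus moved by over 1.5 times. In the GRCm38 annotation, 873 bases of Csf1r exons overlap those of Hmgxb3 on the opposite strand. The sources used here do not say whether counting used strand, and Hmgxb3 itself had a log2 fold change of 0.11 ± 0.10 (edgeR adjusted p = 0.664). Per length, both ligands together exceeded their receptor by 2.12 to 3.44 times in the controls and by 2.62 to 11.5 times in COPD, with the ratio of 11.5 in COPD replicate 2.

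**Figure D2:**
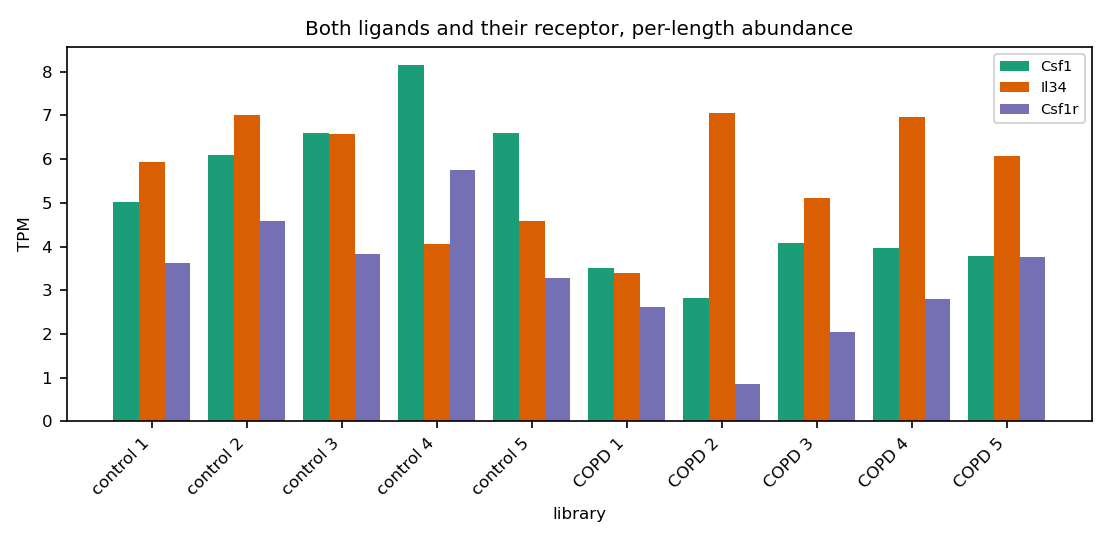
Bars give the TPM (linear axis from 0) of Csf1, Il34 and Csf1r in each of the 10 libraries, with no averaging. Csf1 falls between 5.03 and 8.16 TPM in the controls and between 2.83 and 4.07 TPM in COPD, while Il34 spans 4.06 to 7.01 and 3.40 to 7.06 TPM; Csf1r is lowest, at 0.860 TPM, in COPD replicate 2.

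The 3 genes of complement C1q varied together. C1qa was at 13.04, 22.5, 20.6, 24.0 and 10.3 CPM in control replicates 1 to 5 and at 16.1, 7.17, 7.94, 12.1 and 15.0 CPM in COPD replicates 1 to 5. C1qb was at 13.3, 25.4, 17.4, 26.7 and 10.4 CPM in control and at 16.4, 6.29, 7.35, 12.1 and 15.6 CPM in COPD. C1qc was at 9.31, 15.4, 12.96, 15.6 and 9.23 CPM in control and at 10.9, 4.59, 5.81, 7.12 and 12.5 CPM in COPD. In each of the 3, COPD replicates 2 and 3 were the lowest of the 10 libraries, and COPD replicates 1 and 5 lay among the controls. The log2 fold changes were -0.63 ± 0.28 for C1qa, -0.69 ± 0.31 for C1qb and -0.61 ± 0.27 for C1qc, and their adjusted p by edgeR lay at 0.318, 0.340 and 0.318. The spread among the controls was itself more than 2-fold for C1qa and C1qb, with control replicates 1 and 5 low.

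The proportions of the 3 chains overlapped between the groups. In TPM, C1qb over C1qa was 1.00 ± 0.111 in control and 0.951 ± 0.0665 in COPD, and C1qc over C1qa was 0.732 ± 0.109 and 0.711 ± 0.0974 (SD, n = 5 each). Across the 10 libraries the log2 CPM of C1qa and C1qb had a Pearson r of 0.99, given as a description. Because these genes vary together, the promoters of C1qb and C1qc are shown from RefSeq (GRCm38), 5′ to 3′ on the gene's strand, up to the most upstream annotated start. Capitals mark GAGGAA on either strand, the letters at the core of sites for PU.1, the product of Spi1 and a lineage factor of macrophages.
C1qb (chr4:136886201-136886450, minus strand): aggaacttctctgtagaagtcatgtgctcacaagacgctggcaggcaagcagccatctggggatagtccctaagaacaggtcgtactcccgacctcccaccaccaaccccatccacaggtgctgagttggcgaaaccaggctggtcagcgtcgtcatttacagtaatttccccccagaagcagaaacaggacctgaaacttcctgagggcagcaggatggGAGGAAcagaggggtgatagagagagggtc
C1qc (chr4:136893066-136893164, minus strand): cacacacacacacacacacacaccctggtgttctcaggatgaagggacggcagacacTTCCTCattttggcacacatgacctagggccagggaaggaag
Both hold the motif. Of the 10 genes, 7 were matched among RefSeq promoters (300 bases each, 250 before and 50 after the start), and 4 of them held GAGGAA on either strand (C1qb, C1qc, Cd68 and Mrc1), against 28.3% of 32851 promoters. The promoters of C1qa, Csf1r and Il34 were not used here. Those of Lyz2, Cd163 and Csf1 held none. The Pearson r with Csf1r was 0.89 for C1qb, 0.92 for C1qc, 0.82 for Cd68 and 0.82 for Mrc1, which hold it. It was 0.82 for Lyz2, 0.20 for Cd163 and 0.75 for Csf1, which do not. Whether the motif goes with any pattern of the genes was not tested. The promoter of Csf1, the gene whose groups separated, is also shown and has no such run of letters.
Csf1 (chr3:107760470-107760719, minus strand): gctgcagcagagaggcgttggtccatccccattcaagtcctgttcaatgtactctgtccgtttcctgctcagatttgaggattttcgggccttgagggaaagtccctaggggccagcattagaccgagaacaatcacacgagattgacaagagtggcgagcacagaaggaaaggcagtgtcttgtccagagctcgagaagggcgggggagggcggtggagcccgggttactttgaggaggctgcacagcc
A match describes letters in a window, not binding.

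Lyz2 encodes lysozyme M, an enzyme that breaks bacterial walls, which macrophages, monocytes and neutrophils make. It was the most abundant of the 10 per length, at 50.1 ± 11.7 TPM in control and 26.8 ± 17.4 TPM in COPD (SD, n = 5 each). In CPM its values were 39.1, 27.6, 26.5, 29.1 and 21.9 in control replicates 1 to 5 and 17.1, 9.02, 11.1, 14.9 and 35.6 in COPD replicates 1 to 5. COPD replicates 1 to 4 lay below all controls, and COPD replicate 5 lay above 4 of the 5 controls. Over the 10 libraries its log2 fold change was -0.71 ± 0.31 (edgeR adjusted p = 0.321).

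The 2 libraries with the most Lyz2, control replicate 1 and COPD replicate 5, were those with the most neutrophil transcripts. S100a8, a calcium-binding protein abundant in neutrophils, was at 48.98 CPM in control replicate 1, at 14.3 CPM in COPD replicate 5 and at 0.222 to 2.72 CPM elsewhere. Its partner S100a9 was at 88.0 CPM, 25.8 CPM and 0.222 to 4.85 CPM in the same libraries. With control replicate 1 and COPD replicate 5 both left out, Lyz2 had a log2 fold change of -1.01 ± 0.19 and passed the threshold (edgeR adjusted p = 0.0306), as did Csf1 (-0.75 ± 0.15, adjusted p = 0.0378); 0.69% of tested genes were called lower in that fit. At an unadjusted p under 0.05, 8 of the 10 were then lower, where 9.01% of tested genes were. With COPD replicate 5 alone left out, Lyz2 was at -1.15 ± 0.21 (edgeR adjusted p = 0.0167) and Csf1 at -0.67 ± 0.16 (edgeR adjusted p = 0.0446), where 1.15% of tested genes were called lower. There 7 of the 10 were lower at an unadjusted p under 0.05, where 10.1% of tested genes were. The fit without both libraries was chosen after the data were seen. Each of these 2 libraries had the most Lyz2 of its group, so these adjusted p-values for Lyz2 are descriptive only. The part of neutrophils in the level of Lyz2 was not tested.

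The expected counts of Lyz2 were not whole in 10 of 10 libraries (by more than 0.05), and the gene has a near-identical copy, Lyz1. The coding sequences, 447 bases each in the GENCODE transcripts, differed at 22 bases (95.1% identity), with an identical run of up to 118 bases. The first 150 coding bases are shown to let the likeness be seen, with the 14 differing bases in capitals.
Lyz2: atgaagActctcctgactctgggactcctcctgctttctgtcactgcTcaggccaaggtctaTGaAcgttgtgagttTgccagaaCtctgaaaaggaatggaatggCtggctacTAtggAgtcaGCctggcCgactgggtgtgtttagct
Lyz1: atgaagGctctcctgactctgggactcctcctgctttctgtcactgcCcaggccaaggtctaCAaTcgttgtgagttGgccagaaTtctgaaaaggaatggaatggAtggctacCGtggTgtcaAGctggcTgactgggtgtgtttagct
Lyz1 took between 13.8% and 25.5% of the summed counts of the pair, and its log2 fold change was -0.34 ± 0.41 (edgeR adjusted p = 0.759). With both summed into 1 row, the log2 fold change was -0.64 ± 0.33 (edgeR adjusted p = 0.396), so the values of Lyz2 are uncertain to the extent that reads were split between the copies.

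Cd68, a membrane glycoprotein of lysosomes that serves as a general macrophage marker, was at 3.95, 4.26, 3.52, 5.32 and 3.26 CPM in control replicates 1 to 5. In COPD replicates 1 to 5 it was at 2.36, 1.92, 3.16, 2.51 and 4.47 CPM. COPD replicates 1 to 4 lay below the lowest control and COPD replicate 5 above 4 of the controls, as for Lyz2. Cd68 had a log2 fold change of -0.49 ± 0.23 (edgeR adjusted p = 0.357) and, without COPD replicate 5, -0.71 ± 0.21 (edgeR adjusted p = 0.0854). These levels rest on 26 to 96 counts per library. The promoter of Cd68 is shown because it holds, in capitals, TGANTCA (letters that AP-1 dimers of Fos and Jun proteins bind) at 2 places, beside GAGGAA; among all 32851 promoters 7.81% held TGANTCA, and of the 7 matched genes Cd68 was the 1 that did.
Cd68 (chr11:69666171-69666420, minus strand): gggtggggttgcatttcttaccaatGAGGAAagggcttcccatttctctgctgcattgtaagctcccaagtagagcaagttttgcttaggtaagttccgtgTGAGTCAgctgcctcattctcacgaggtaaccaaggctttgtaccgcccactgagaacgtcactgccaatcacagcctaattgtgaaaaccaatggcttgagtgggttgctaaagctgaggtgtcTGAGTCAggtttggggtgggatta

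Mrc1 and Cd163, scavenger receptors of resident and repair macrophages, had the smallest differences of the markers. Mrc1, the mannose receptor CD206, was at 4.35, 8.34, 6.45, 8.54 and 5.19 CPM in control replicates 1 to 5 and at 5.54, 2.44, 2.72, 5.90 and 13.1 CPM in COPD replicates 1 to 5. COPD replicates 2 and 3 were the lowest of the 10 libraries and COPD replicate 5 the highest. Mrc1 had a log2 fold change of -0.13 ± 0.40 (edgeR adjusted p = 0.910), and its sign turned when either COPD replicate 2 or 3 was left out (0.061 and 0.055). Without COPD replicate 5 it was -0.66 ± 0.30 (edgeR adjusted p = 0.245).

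Cd163 takes up complexes of haemoglobin and haptoglobin. It was at 2.37, 4.44, 3.46, 3.44 and 3.65 CPM in control replicates 1 to 5 and at 2.81, 3.40, 3.01, 4.68 and 6.43 CPM in COPD replicates 1 to 5. COPD replicates 4 and 5 lay above all controls and the other 3 inside their range. Cd163 had a log2 fold change of 0.24 ± 0.25 (edgeR adjusted p = 0.712), and 0.0055 without COPD replicate 5, so that 1 library carried most of it; without control replicate 1 it was 0.12. By limma on log2(TPM + 1) it was -0.0066. COPD replicate 2, which had the fewest counts of Csf1r and of the C1q genes, was at 3.40 CPM of Cd163, within 0.1 CPM of the control median of 3.46. In TPM, Cd163 over C1qa was 0.0458, 0.0495, 0.0420, 0.0367 and 0.0877 in control replicates 1 to 5. In COPD replicates 1 to 5 it was 0.0444, 0.120, 0.0944, 0.0950 and 0.105. The ratio in COPD replicates 2 to 5 was above that of each control, and that in COPD replicate 1 lay among the controls. Expected counts of Cd163 were not whole in 7 of 10 libraries and lay between 38.35 and 105.

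**Figure D3:**
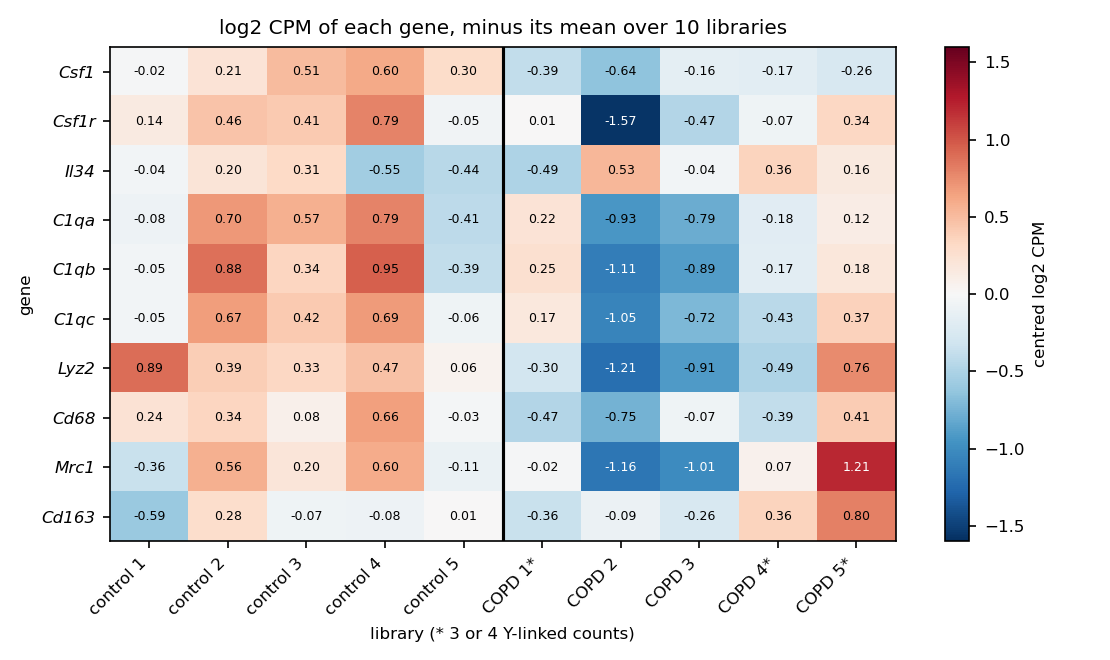
Each cell gives the log2 CPM of a gene (rows) in a library (columns), minus the gene's mean over 10 libraries; red is above and blue below that mean, and asterisks mark COPD libraries with 3 or 4 Y-linked counts. COPD replicate 2 is the lowest column for Csf1r (-1.57), the C1q genes, Lyz2 (-1.21) and Mrc1 (-1.16), while Il34 (0.53) is at its highest there.

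COPD replicate 2 had the lowest value of the 10 libraries for 8 genes, Il34 and Cd163 being the exceptions. Each gene was compared with Csf1r across the 10 libraries (log2 CPM; Pearson r and Spearman rho, each with a two-sided permutation test of 100000 resamples, adjusted over the 9 relations). C1qc followed Csf1r most closely, with r = 0.92 (permutation p = 2e-05, adjusted 9e-05) and rho = 0.99 (permutation p = 1e-05, the smallest that the resamples can give, adjusted 9e-05). C1qb (r = 0.89, permutation p = 3e-05; rho = 0.95, permutation p = 0.00013) and C1qa (r = 0.88, permutation p = 3e-05; rho = 0.95, permutation p = 0.00013) came next, with adjusted values of 9e-05 for each r and 0.00039 for each rho. Without COPD replicate 2 and control replicate 4, the libraries farthest from the median of Csf1r, r was 0.94 for C1qc, 0.90 for C1qb and 0.92 for C1qa. Within the 7 libraries with Y-linked counts, which include both COPD replicate 2 and control replicate 4, r was 0.95, 0.90 and 0.89. The other 3 libraries are too few for a value.

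Lyz2 (r = 0.82, permutation p = 0.00088; rho = 0.79, permutation p = 0.00863), Cd68 (r = 0.82, permutation p = 0.00128; rho = 0.85, permutation p = 0.00272) and Mrc1 (r = 0.82, permutation p = 0.00196; rho = 0.82, permutation p = 0.00562) also followed Csf1r. Their adjusted values were 0.00198, 0.00230 and 0.00294 for r and 0.0129, 0.00612 and 0.0101 for rho. Without the 2 farthest libraries, r was 0.80, 0.59 and 0.80, and within the 7 libraries with Y-linked counts 0.86, 0.96 and 0.91. For Csf1, r was 0.75 (permutation p = 0.00683, adjusted 0.00878) and rho 0.66 (permutation p = 0.0433, adjusted 0.0557). Without the 2 farthest libraries r was 0.42, so the relation of ligand to receptor rests on them. Within the 7 libraries with Y-linked counts r was 0.93, but these include both of the farthest libraries and are no separate check. Neither Il34 (r = -0.44, permutation p = 0.209; rho = -0.37, permutation p = 0.296) nor Cd163 (r = 0.20, permutation p = 0.556; rho = 0.22, permutation p = 0.538) passed, with adjusted values of 0.235 and 0.556 for r and 0.333 and 0.538 for rho. Their r without the 2 farthest libraries was 0.41 and 0.38, and within the 7 libraries with Y-linked counts -0.55 and 0.15. All of these libraries share the scaling to library size, and the groups are part of the spread.

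Of 11685 other genes with a mean of at least 1 CPM, those most like Csf1r over the 10 libraries were Wrnip1 (Pearson r = 0.97), Apod (0.96), Fcgr3 (0.95), Map6 (0.95), Cul7 (0.95), Strn4 (0.95), Bmp4 (0.95) and Adcyap1r1 (0.95). Fcgr3, a receptor for antibody, is in the pan-macrophage list. Most like C1qa were Ifitm3 (0.98), Ecscr (0.97), Cyp4v3 (0.97), Coro1b (0.96), Ttc30a1 (0.95), Apoe (0.93), Ly6e (0.93) and Ifitm2 (0.92). Ifitm3, Ly6e and Ifitm2 are genes that interferons induce, and Apoe, a lipid carrier, is abundant in macrophages. Most like Csf1 were Gnmt (0.92), Prrt4 (0.91), Fdft1 (0.90), Trim35 (0.89), Zfp157 (0.88), Ripk2 (0.88), Apbb2 (0.88) and Armcx3 (0.87). These values are a ranking over 10 libraries, with no test.

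With the COPD libraries split by Y-linked counts, the 10 genes had these values. For COPD replicates 2 and 3 against the 5 controls, all with Y-linked counts, edgeR called 3 of the 10 genes lower: C1qc (log2 fold change -1.26, adjusted p = 0.0385), Lyz2 (-1.51, adjusted p = 0.00946) and Mrc1 (-1.34, adjusted p = 0.0492), where 1.15% of tested genes were called lower. At an unadjusted p under 0.05, 8 of the 10 were lower, where 9.59% of tested genes were. Csf1r was at -1.32 ± 0.33 (edgeR adjusted p = 0.0622), C1qa at -1.25 ± 0.34 (0.0768) and C1qb at -1.44 ± 0.38 (0.0720). For COPD replicates 1, 4 and 5 against the same controls, 0 of the 10 passed (0.0462% of tested genes were called lower) and 1 (Csf1) had an unadjusted p under 0.05 by edgeR, where 3.98% of tested genes were lower at that p. There Csf1r was at -0.28 ± 0.20, C1qa at -0.32 ± 0.27 and Mrc1 at 0.32 ± 0.32. The difference between the 2 kinds of COPD library, taken from the term for Y-linked counts in a fit of all 10 libraries, passed for 0 of the 10 genes over all genes tested. On the log2 scale, libraries with Y-linked counts over those without, it was -1.67 ± 0.43 for Mrc1 (edgeR adjusted p = 0.187), -1.16 ± 0.36 for Lyz2 (0.288) and -1.04 ± 0.34 for Csf1r (0.316). For Csf1 it was -0.11 ± 0.22 (edgeR adjusted p = 0.926). The 2 comparisons share their controls, and the Y-linked counts of COPD replicates 2 and 3 cannot be told apart from anything else those libraries share. COPD replicates 1, 4 and 5 held only 3 or 4 Y-linked counts, where every control held many. In their comparison, disease and Y-linked counts cannot be told apart.

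**Figure D4:**
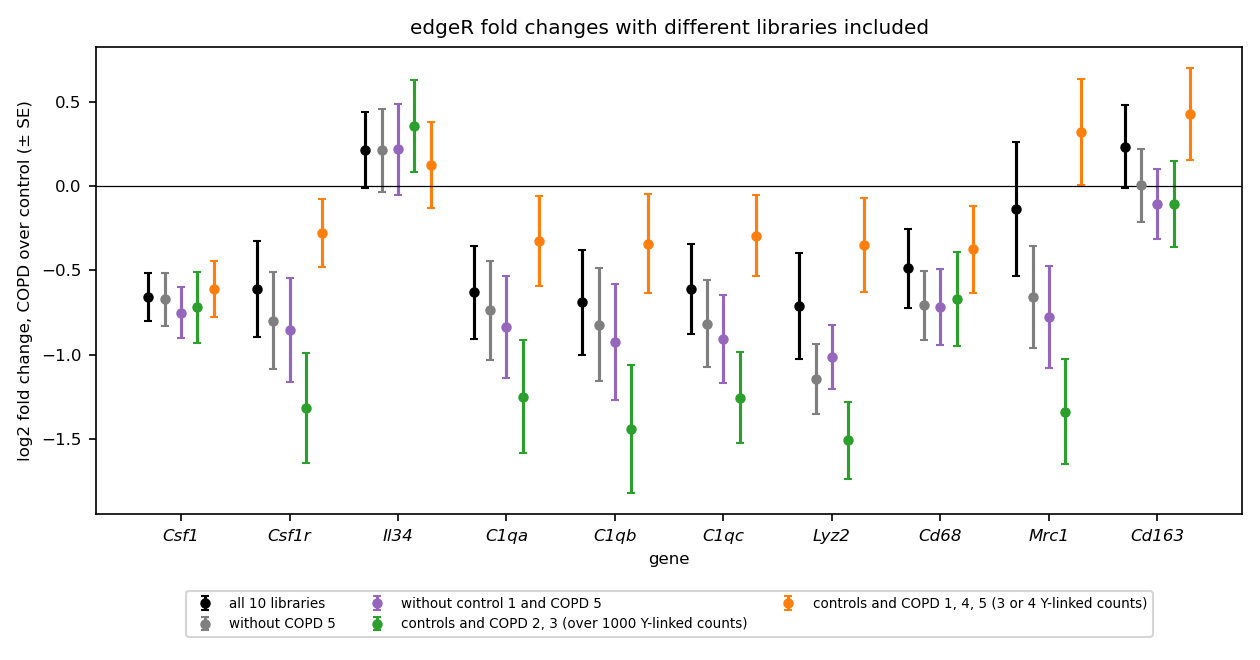
Points give the edgeR log2 fold change (COPD over control, ± SE) of each gene with all 10 libraries, without COPD replicate 5, without control replicate 1 and COPD replicate 5, and with the COPD libraries split by Y-linked counts. Csf1 stays between -0.61 and -0.75, whereas Mrc1 runs from -1.34 in COPD replicates 2 and 3 to 0.32 in COPD replicates 1, 4 and 5.

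Other genes of the macrophage and of CSF signalling were read from lists. Of all genes tested, 52% lay below 0 on the log2 scale. At an unadjusted p under 0.05 by edgeR, 6.64% of them were lower and 7.94% higher. Among 14 tested genes of the pan-macrophage surface, 12 lay below 0 on the log2 scale and their median was -0.38 (-0.01 over all genes tested), and 0 passed by edgeR (0 at an unadjusted p under 0.05). Fcer1g, the signalling chain of antibody receptors, had 6.86 ± 2.10 CPM among controls and 5.03 ± 1.71 CPM among COPD libraries (SD, n = 5 each). Mpeg1, a pore-forming protein of phagocytes, was at 2.97 ± 1.08 and 1.83 ± 1.405 CPM, and the adaptor gene Tyrobp at 3.28 ± 1.22 and 2.23 ± 1.15 CPM (SD, n = 5 each). Both were lowest in COPD replicate 2, at 0.444 and 0.740 CPM. All 9 tested pan-leukocyte genes were below 0, with a median of -0.59, and 0 passed by edgeR (0 at an unadjusted p under 0.05). Among them Lcp1, an actin-bundling protein of leukocytes, had a log2 fold change of -0.83 ± 0.39 and Coro1a one of -0.75 ± 0.42. With 1 library left out, the log2 fold change ran from -1.30 to -0.59 for Lcp1 and from -1.11 to -0.35 for Coro1a. Both were highest in control replicate 1, the library with most neutrophil transcripts, at 9.93 and 11.3 CPM, and high in COPD replicate 5, at 7.22 and 6.37 CPM; the part of neutrophils in these values was not tested.

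**Figure D5:**
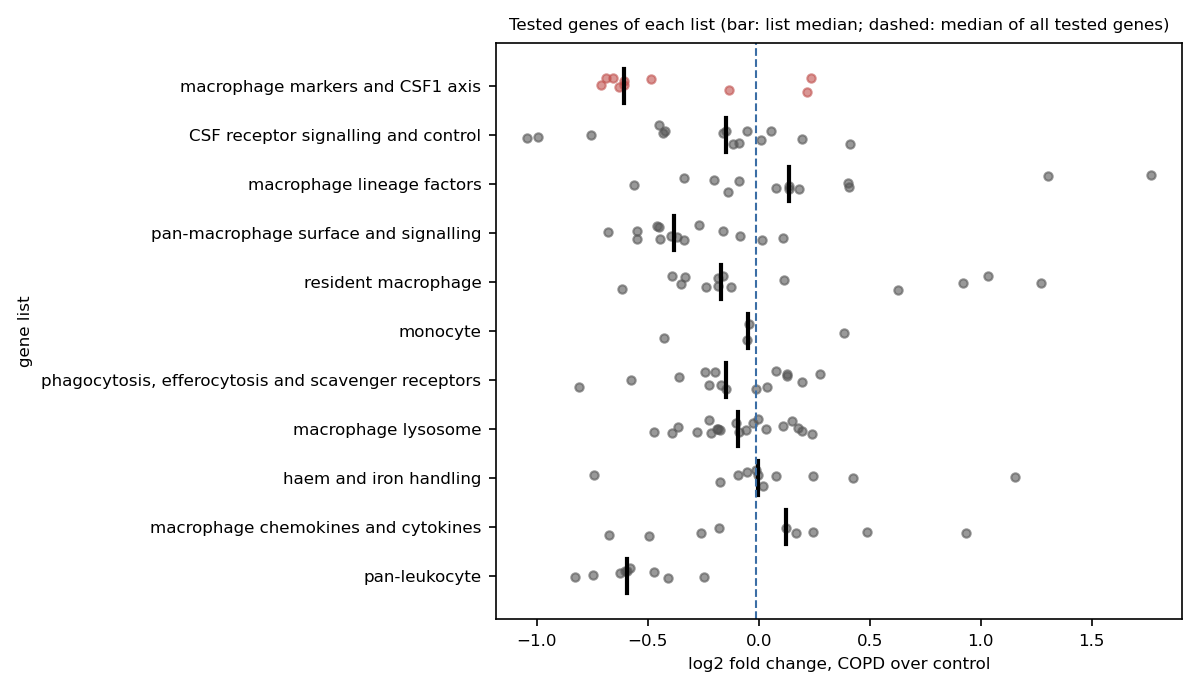
Each point is the edgeR log2 fold change (COPD over control) of a tested gene, grouped by list; the short bar is the list's median and the dashed line the median of all tested genes. The medians of the pan-leukocyte genes (-0.59) and of the 10 genes described here (-0.61) sit to the left of the line at -0.01. The median of the lineage factors (0.14) lies to its right, as do Il34 (0.22) and Cd163 (0.24) of the 10 genes.

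Of 13 tested lineage factors of macrophages, 8 lay above 0 on the log2 scale, and the median was 0.14. By edgeR 0 passed, and at an unadjusted p under 0.05 there were 2 higher and 0 lower. The list was mixed, with 5 genes below 0, among them Spi1, whose product is PU.1. Its log2 fold change was -0.56 ± 0.38 (edgeR adjusted p = 0.539), and it is named here after its values were seen. Cebpb, a factor of myeloid cells and of many stressed tissues, was in COPD replicates 1 to 4 at 123 to 202 CPM, above each control, and in COPD replicate 5 at 54.4 CPM, among the controls at 49.6 to 67.3 CPM (1.30 ± 0.26, edgeR adjusted p = 0.0795).

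Of 15 tested genes of CSF receptor signalling and its control, 11 were below 0 and the median was -0.15. By edgeR 0 passed. At an unadjusted p under 0.05, where 6.64% of all tested genes were lower and 7.94% higher, there were 2 lower and 0 higher. These were Csf2rb, the signalling chain shared by receptors of GM-CSF and related cytokines (log2 fold change -0.76 ± 0.30, edgeR adjusted p = 0.273, and -0.46 without control replicate 2), and Ptpn6, a phosphatase that restrains such receptors (-1.04 ± 0.48, edgeR adjusted p = 0.341). Csf3r, the receptor of the neutrophil growth factor, was at 10.5 CPM in control replicate 1, 4.16 CPM in COPD replicate 5 and 1.33 to 5.62 CPM elsewhere. In the list of resident macrophage genes, 14 were tested, 9 were below 0 (median -0.17), 0 passed by edgeR, and at an unadjusted p under 0.05 there were 3 higher and 0 lower. F13a1, a clotting factor chain of resident macrophages, had 6.97 ± 1.30 CPM among controls and 4.52 ± 2.27 CPM among COPD libraries (SD, n = 5 each). The 3 were Ednrb (log2 fold change 1.03 ± 0.22, edgeR adjusted p = 0.0887), Cd209d (0.92 ± 0.41, edgeR adjusted p = 0.332) and Cbr2 (1.27 ± 0.57, edgeR adjusted p = 0.333). Ednrb, an endothelin receptor, and Cbr2, a carbonyl reductase, are also expressed outside macrophages. Cd209d, a C-type lectin named here after its values were seen, lay at 0.562 ± 0.181 CPM among controls and 1.07 ± 0.646 CPM among COPD libraries (SD, n = 5 each). Without COPD replicate 1 the log2 fold change of Cd209d was 0.52, and without COPD replicate 3 that of Cbr2 was 0.85.

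Phagocytosis and scavenger genes, 15 tested, had 9 below 0, where 52% of all tested genes were, and a median of -0.15. By edgeR 0 passed. At an unadjusted p under 0.05, where 6.64% of all tested genes were lower and 7.94% higher, there were 1 lower and 0 higher. That gene, Abca1, exports cholesterol from macrophages and other cells. Its range was 15.6 to 21.9 CPM among controls and 9.32 to 12.98 CPM among COPD libraries, without overlap (log2 fold change -0.81 ± 0.15, edgeR adjusted p = 0.0611). Such a separation, with COPD lower, was seen in 1.55% of tested genes. The 20 lysosome genes had a median of -0.09 with 14 below 0, and 0 passed by edgeR (0 at an unadjusted p under 0.05). Control means in this list reached 685 CPM, where that of Csf1r was 9.22 CPM. Which cells of the muscle made these transcripts was not tested. Of 11 haem and iron genes, 6 were below 0, with a median of 0.00 (-0.00495 before rounding), and 0 passed by edgeR. At an unadjusted p under 0.05, 2 were higher and 1 lower: Tfrc, the transferrin receptor (1.16 ± 0.26), Blvra, which reduces biliverdin (0.25 ± 0.10), and Slc11a1, an iron transporter of phagosomes (-0.74 ± 0.29). Of 9 tested chemokine and cytokine genes 4 were below 0, with a median of 0.12, and of 4 monocyte genes 3 were, with a median of -0.05; 0 of either list passed by edgeR (0 at an unadjusted p under 0.05). A further 12 of the 21 chemokine and cytokine genes and 8 of the 12 monocyte genes did not pass the filter on low counts and are not described here.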

How the data were processed

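Gene counts came from whole gastrocnemius of 10 samples, grouped by their titles. The authors deposited expected counts per gene symbol (30.7% of values not whole) and TPM for the same genes. Per the submitters' processing notes, HISAT2 2.0.4, Bowtie2 2.2.5, RSEM 1.2.12, DESeq2 1.4.5 and build mm9 were named, with no role or order. Per the labels' protocols, RNA was selected with oligo(dT) beads and primed with random hexamers.

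Expected counts were rounded, filtered with filterByExpr, scaled by TMM and tested with edgeR 4.0.16 (glmQLFit, glmQLFTest; R 4.3.3); p-values were adjusted by Benjamini-Hochberg over all genes tested and held to 0.05. The SE is the log2 fold change divided by the square root of F. Correlations used log2 CPM with a prior count of 2. Alternatives used DESeq2 1.42.0 and limma 3.58.1 (pseudocounts 1 and 0.1), and figures matplotlib 3.10.9. The scripts were tested on simulated data.

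Members and lists were chosen with earlier results of these data known. The naming rule took all 10 genes, up to 4 genes of the smallest p and at least 1 CPM per list where none passed, and the 8 genes most alike in pattern to Csf1r, C1qa and Csf1 each. Of the list genes that it took, 22 were kept for the text after their values, and the settings under which they change sign, had been seen; the others are not named, and a gene of the lists is not reported here by name, so the genes of the lists named here are a selection and no unbiased sample. Promoters are from RefSeq (GRCm38) and coding sequences from GENCODE M21; no other coordinates of that build are given, since the authors' build was mm9.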

Additional observations from a re-analysis of the deposited data

How the results depend on the processing

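With all 10 libraries, edgeR called 7 genes higher and 1 lower, and 0 of the 10 macrophage and CSF1 genes. Counts of genes higher and lower were 2 and 4 with library size alone, 7 and 3 with upper-quartile scaling, 14 and 3 without a low-count filter, 263 and 151 by DESeq2 and 86 and 51 by voom with sample weights. By limma they were 9 and 58 on log2(TPM + 1), 9 and 56 on log2(TPM + 0.1), and 0 and 2 on log2(TPM + 1) with no filter. Leaving out each library in turn gave 0 to 263 higher and 0 to 147 lower, the highest without COPD replicate 5. They were 336 and 152 with the libraries holding Y-linked counts, 165 and 51 with a term for those counts, 1 and 6 with the other COPD libraries, and 134 and 87 without control replicate 1 and COPD replicate 5; the cause was not tested. Those last 2 settings, and the summing of Lyz1 with Lyz2, were chosen after seeing the data. Library size alone moved the median of all genes to -0.17, and limma on log2(TPM + 1) to -0.18.

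Of the 10 genes, 1 was called lower by DESeq2, 1 by limma on log2(TPM + 1) and 1 on log2(TPM + 0.1) (Csf1 each time). Leaving out each library gave 0 to 2, the libraries with Y-linked counts 3, and leaving out control replicate 1 and COPD replicate 5 together 2. None was called higher in any of the 26 alternatives. Csf1, Csf1r, the C1q genes, Lyz2 and Cd68 had a log2 fold change below 0, and Il34 one above 0, in all 26, the smallest for Il34 being 0.0052 by limma on log2(TPM + 0.1). Csf1 ranged from -0.82 to -0.58, with adjusted p from 0.00589 to 0.313. Mrc1 ran from -0.66 (without COPD replicate 5) to 0.061 (without COPD replicate 2) when 1 library was left out, and turned to 0.055 without COPD replicate 3 and to 0.32 with the COPD libraries lacking Y-linked counts. Cd163 turned to -0.0066 by limma on log2(TPM + 1), with and without a filter, to -0.026 on log2(TPM + 0.1), to -0.10 in the libraries with Y-linked counts, to -0.11 with the term for them and to -0.11 without control replicate 1 and COPD replicate 5. S100a8 ran from -4.51 without COPD replicate 5 to 0.84 without control replicate 1, and S100a9 from -4.06 to 1.30.

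The replicate numbers showed no sign of pairing the libraries: same-numbered deviations correlated at -0.14 to 0.04, and 0 of 5 controls matched its own number best. A pairing with a small effect on expression could not be seen this way. With the replicate number as a block, 6 genes were higher and 1 lower, and 0 of the 10. Cd68, Cd163 and Csf1r rest on as few as 26, 38.35 and 31 counts in a library, which limits the differences that could be called.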

Other observations

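Markers of other cell types were summed per library, in CPM, over the genes found in the tables. Fibroblast markers (10 of 10 listed) lay between 470 and 653 in control and 385 and 719 in COPD, endothelial markers (10 of 10) between 334 and 564 and between 349 and 558, and smooth muscle and pericyte markers (7 of 7) between 493 and 703 and between 523 and 681. Mast cell markers (7 of 7) spanned 6.15 to 16.7 and 4.41 to 15.3, dendritic cell markers (10 of 10) 8.45 to 12.4 and 10.8 to 18.3, T and NK cell markers (9 of 11) 0.718 to 2.90 and 0.662 to 1.18, and B cell markers (6 of 7) 0.718 to 1.83 and 0.296 to 1.53. The macrophage list (12 of 12) summed to between 74.6 and 131 in control and 38.9 and 120 in COPD, lowest in COPD replicates 2 (38.9) and 3 (48.6).

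Satellite cell markers (7 of 7) lay between 56.2 and 67.6 in control and 67.4 and 111 in COPD. Of these, Sdc4 had 15.5 ± 3.15 CPM among controls and 40.8 ± 21.8 CPM among COPD libraries, while Pax7, which defines the satellite cell, was at 2.39 ± 0.547 and 1.35 ± 0.631 CPM and Vcam1 at 3.78 ± 1.13 and 2.07 ± 0.362 CPM (SD, n = 5 each). Of the 6 tested, 4 were below 0 on the log2 scale, and 0 passed by edgeR. At an unadjusted p under 0.05, where 7.94% of all tested genes were higher and 6.64% lower, there were 1 higher and 2 lower. Tendon markers (6 of 6) lay between 34.2 and 85.5 and between 72.6 and 198. Adipocyte markers (7 of 7) lay between 1703 and 4789 and between 3347 and 8330, nearly all of it Car3 (3166 ± 1140 and 5322 ± 1957 CPM), which muscle fibres also express, so this sum does not describe adipocytes. Schwann cell markers (6 of 6) spanned 126 to 248 and 108 to 387, and red cell markers (7 of 7) 42.3 to 911 and 136 to 1375, with the most in COPD replicate 5, the library with the most Cd163. In no list was a marker at 0 in all 10 libraries. The part of these cells in the levels of the 10 genes was not tested.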
